A study of Mus musculus with 6 samples.

Results

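The 37 genes described here encode ligands, receptors, Smads, extracellular antagonists, Smurf ligases and Id proteins of the BMP and TGF-beta pathways. They were picked by gene symbol from the 24062 genes of the count tables, and all 37 were found. RNA was sequenced from CD31+ckit+ cells of E10.5 mouse embryos heterozygous for a *Gata2* allele that carries the Venus reporter (*G2V/+*, labelled Gata2Venus), so that both groups share the genotype and the age. The labels give the strain of all samples as C57BL/6JOlaHsd, while the study's methods name C57BL/6J for the mothers of such embryos. The cells came from the AGM, the aorta-gonad-mesonephros region in which the first hematopoietic stem cells arise, dissected with part of the vitelline and umbilical arteries. They were sorted by Venus level into a medium (Vmed) and a high (Vhigh) fraction, with 3 libraries per fraction numbered 1 to 3 in both. Venus reports *Gata2* transcription from its own locus, and CD31 and ckit are also carried by cells other than stem cells. How many embryos were pooled per library is not given in the sources used here, and nothing in the labels ties a library to a single embryo. The comparison asks how pathway genes are expressed in cells with medium and high *Gata2* reporter levels.

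BMP and TGF-beta ligands are secreted dimers that bring type I and type II serine/threonine kinase receptors together. BMP receptors phosphorylate Smad1, Smad5 and Smad9, while TGF-beta and activin receptors phosphorylate Smad2 and Smad3, and both sets enter the nucleus with Smad4. Smad6, Smad7 and the Smurf ubiquitin ligases restrain the signal, and proteins such as Noggin, Gremlin and Chordin hold BMPs outside the cell. The Id genes are common BMP targets. Their products bind E-proteins and keep these basic helix-loop-helix factors off DNA. In the midgestation embryo BMP4 is produced under the ventral wall of the dorsal aorta and is known to act on blood stem cell formation, and TGF-beta signals shape the vessel wall and its endothelium.

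Total counts on genes were between 8296831 and 9715131 in the Vmed libraries and between 10660122 and 12035206 in the Vhigh libraries. Values are CPM (counts scaled to each library's total on genes) unless stated otherwise, and 3 counts correspond to 0.249 to 0.362 CPM. These limits cover counting error only. Vhigh replicate 1 stood apart: 15 of the 37 members had 0 counts in it, against 2 and 4 in the other Vhigh libraries and 3, 6 and 5 in the Vmed libraries. Over all genes, 56.7% had 0 counts in Vhigh replicate 1, against 23.3 to 47.2% in the other 5 libraries. Where a fitted value turned its sign or moved by more than 1.5 times without this library, the value without it is given beside it, except for members given only by their range. *Pecam1*, which encodes CD31, and *Kit* were detected in all 6 libraries. *Pecam1* was at 118 to 569 CPM. *Kit* had 64.1, 208 and 59.1 CPM in Vmed and 254.5, 490 and 521 CPM in Vhigh, so that every Vhigh library was above every Vmed library. *Gata2* itself had 50.3, 29.4 and 68.3 CPM in Vmed and 39.2, 82.5 and 142 CPM in Vhigh. The library labelled Vhigh replicate 1 was thus below Vmed replicates 1 and 3 in *Gata2*, against the direction of its label, and directions drawn from it rest on that label. Counts were available for 21 members in all 6 libraries, and 30 members passed the filter on low counts and were tested.

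Among the members, *Id2* and *Id3* had the highest mean levels per kilobase of exon and the smallest unadjusted p-values. Both were lower in each Vhigh library than in each Vmed library, with means of 613 against 128 CPM for *Id2* and 616 against 182 CPM for *Id3*. The ligand genes *Tgfb2* and *Bmp5* also did not overlap between the fractions. The study, with edgeR and a false discovery rate of 0.05, reported genes that differed between these fractions, most of them lower in Vhigh. Here, none of the 30 members passed the threshold of an adjusted p of 0.05 in edgeR's quasi-likelihood test, where the background is 0% of 12688 genes. DESeq2, limma-voom and edgeR's likelihood ratio test without the replicate number also called 0 members. At an unadjusted p under 0.05, 2 members were lower in Vhigh (*Id2* and *Id3*) and 0 were higher, where 1.17% of all genes tested were lower. The fractions did not overlap for 4 of 30 members, all lower in Vhigh, against 4.71% of all genes tested. Fitted log2 fold changes (Vhigh over Vmed) were negative for 23 members and positive for 7, with a median of -0.49 against -0.02 for all genes tested. Without Vhigh replicate 1, 19 were negative and 11 positive, with a median of -0.56 against -0.02. In bulk samples such as these, fewer cells of a type and less RNA per cell cannot be told apart.

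**Figure D1:**
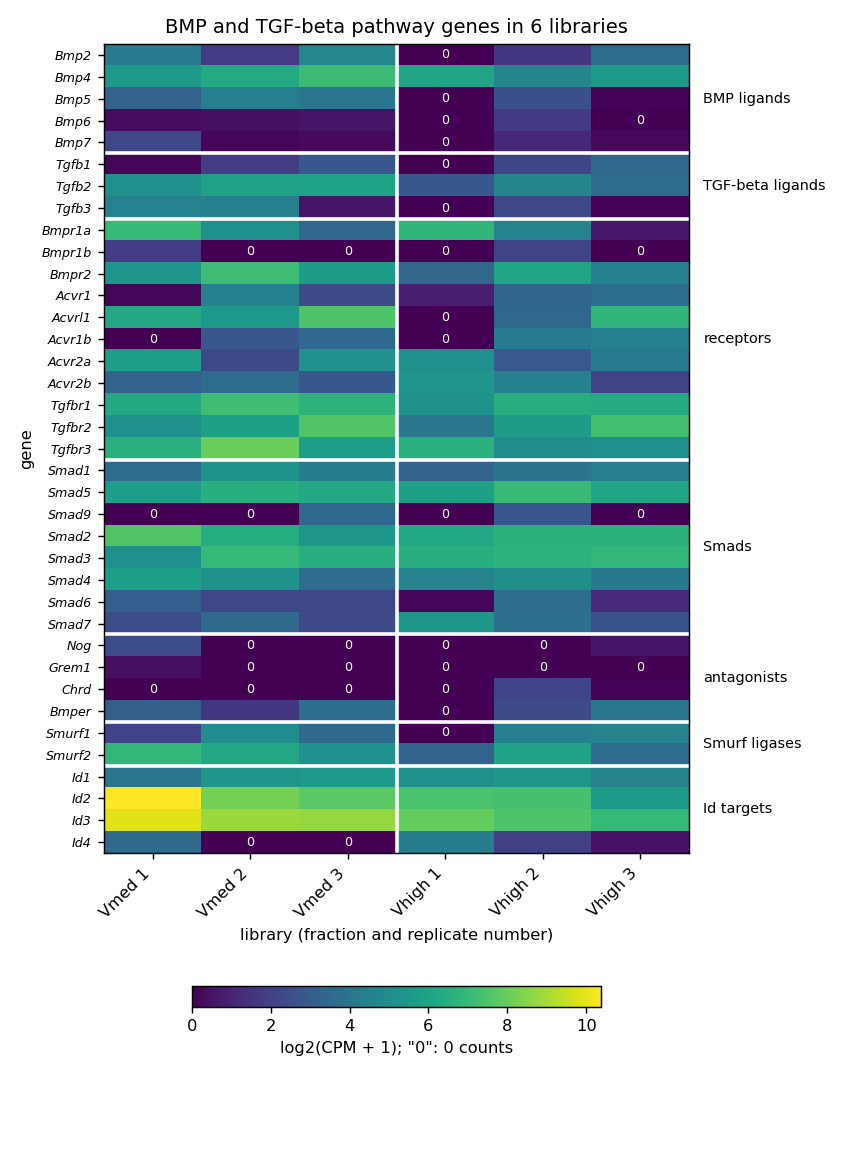
Expression of the 37 pathway genes (vertical axis, grouped by role) in the 6 libraries (horizontal axis, fraction and replicate number), as log2(CPM + 1) on the colour scale, with 0 written where a gene had no count. *Id2* and *Id3* are the brightest genes in all libraries but Vhigh replicate 3. There *Tgfbr2* is above both, and *Id2* is also below *Acvrl1*, *Tgfbr1*, *Smad2*, *Smad3* and *Smad5*. In Vhigh replicate 1, 15 of the 37 genes read 0.

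Of the 5 BMP ligand genes, *Bmp4* was the most abundant, *Bmp5* separated the fractions, and *Bmp6* and *Bmp7* were near the limit of detection. *Bmp4* (chromosome 14, 46383520 to 46390669, GRCm38) had 49.2, 80.5 and 136 CPM in Vmed replicates 1, 2 and 3 and 65.8, 25.8 and 46.4 CPM in Vhigh. The fractions overlapped, since Vhigh replicate 1 was above Vmed replicate 1, and the log2 fold change was -0.93 (SE, standard error, 0.73). *Bmp5* (chromosome 9, 75775364 to 75900310) had 8.58, 21.0 and 15.6 CPM in Vmed and 0, 4.79 and 0.0831 CPM in Vhigh, the last being 1 count. All Vmed libraries were above all Vhigh libraries, and the exact two-sided permutation test gave p = 0.1, the smallest that 3 against 3 libraries allow. The log2 fold change of *Bmp5* was -3.39 with an SE of 2.06, and -2.81 without Vhigh replicate 1. *Bmp2*, which acts in heart and vessel development, had 18.6, 2.53 and 27.3 CPM in Vmed and 0, 2.12 and 11.8 CPM in Vhigh. It was lower in Vhigh within each replicate number, but Vhigh replicate 3 lay above Vmed replicate 2, and the log2 fold change was -1.85 (SE 1.99), and -1.26 without Vhigh replicate 1. *Bmp6* and *Bmp7* did not pass the filter and stayed between 0 and 3.66 CPM.

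The TGF-beta ligand genes behaved unequally. *Tgfb2* (chromosome 1, 186622792 to 186705989) had 36.0, 61.0 and 63.4 CPM in Vmed and 6.29, 25.4 and 11.5 CPM in Vhigh. No Vhigh library reached the lowest Vmed library, and the means were 53.5 ± 15.2 CPM in Vmed and 14.4 ± 9.88 CPM in Vhigh (SD, n = 3 each). The fitted log2 fold change was -1.98 (SE 0.96, unadjusted p = 0.0727 and adjusted p = 0.9998 in edgeR's quasi-likelihood test, exact permutation p = 0.1). Leaving out single libraries kept the value between -2.55 and -1.66. *Tgfb3* ranged from 0.515 to 24.0 CPM in Vmed and from 0 to 3.77 CPM in Vhigh, and its fractions overlapped. It was lower in Vhigh in 3 pairs of the same number, with a log2 fold change of -3.76 (SE 2.18), and -3.19 without Vhigh replicate 1. *Tgfb1* ranged from 0.114 to 5.97 CPM in Vmed and from 0 to 10.4 CPM in Vhigh.

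Of the 11 receptor genes, 10 were tested, and 8 of them had a negative and 2 a positive log2 fold change, with a median of -0.51. For 5 of them (*Bmpr1a*, *Bmpr2*, *Acvrl1*, *Tgfbr1* and *Tgfbr2*) the Vhigh library was below the Vmed library of the same number in 3 of 3 pairs. Over all members tested, 12 of 30 were lower in Vhigh in 3 of 3 pairs and 2 were higher, against 15.4% and 15.2% of all genes tested. The fractions overlapped for every receptor gene, and none had an unadjusted p under 0.05 with all 6 libraries. *Bmpr2*, the type II receptor for BMPs, had 42.2, 142 and 51.3 CPM in Vmed and 10.4, 69.8 and 22.4 CPM in Vhigh. Replicate 2 was the highest in both fractions, and the log2 fold change was -1.30 (SE 0.88). *Bmpr1a*, a type I receptor for BMPs, had 123, 35.8 and 9.68 CPM in Vmed and 112, 23.8 and 0.582 CPM in Vhigh. Replicate 1 was the highest and replicate 3 the lowest in both fractions, and the difference between fractions within a number was small beside the difference between numbers, except in replicate 3. Its log2 fold change was -0.27 (SE 1.43), and -2.43 without Vhigh replicate 1.

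*Acvrl1* encodes ALK1, the type I receptor that endothelial cells use for BMP9 and BMP10. It had 76.7, 47.1 and 181 CPM in Vmed and 0, 10.3 and 113 CPM in Vhigh. The log2 fold change was -1.33 (SE 1.56), and -0.74 without Vhigh replicate 1, in which the gene had no count. *Tgfbr1* and *Tgfbr2* encode the type I and type II receptors for TGF-beta. *Tgfbr1* had 77.6, 147 and 104 CPM in Vmed and 39.2, 86.6 and 79.4 CPM in Vhigh, with a log2 fold change of -0.73 (SE 0.60). *Tgfbr2* had 36.2, 59.1 and 188 CPM in Vmed and 16.7, 52.8 and 151 CPM in Vhigh, a log2 fold change of -0.40 (SE 0.91) that was 0.06 without Vhigh replicate 1. For both genes the Vhigh library was the lower of each pair, while the libraries of a fraction differed more from each other than the fractions did.

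*Tgfbr3*, the co-receptor betaglycan that presents TGF-beta2, had 95.9, 256 and 55.6 CPM in Vmed and 97.2, 34.4 and 36.1 CPM in Vhigh. Replicate 1 was at the same level in both fractions, and the gap came mainly from Vmed replicate 2. The log2 fold change was -1.23 (SE 0.75), and without Vhigh replicate 1 it was -2.01 (unadjusted p = 0.0244, adjusted p = 0.9998 in edgeR's quasi-likelihood test). The activin type II receptor genes had opposite fitted signs. *Acvr2a* had 54.7, 4.10 and 36.7 CPM in Vmed and 35.9, 6.45 and 19.2 CPM in Vhigh, a log2 fold change of -0.62 (SE 1.26) that was -1.39 without Vhigh replicate 1. *Acvr2b* had 8.81, 11.8 and 6.28 CPM in Vmed and 41.6, 22.8 and 3.41 CPM in Vhigh, a log2 fold change of 1.34 (SE 1.38) that was 0.38 without Vhigh replicate 1. Neither separated the fractions, and in both genes 2 of 3 pairs went one way and 1 the other. The type I receptor genes *Acvr1* and *Acvr1b* stayed at or below 22.7 CPM, and *Bmpr1b* was at 0 in 4 of the 6 libraries and did not pass the filter.

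**Figure D2:**
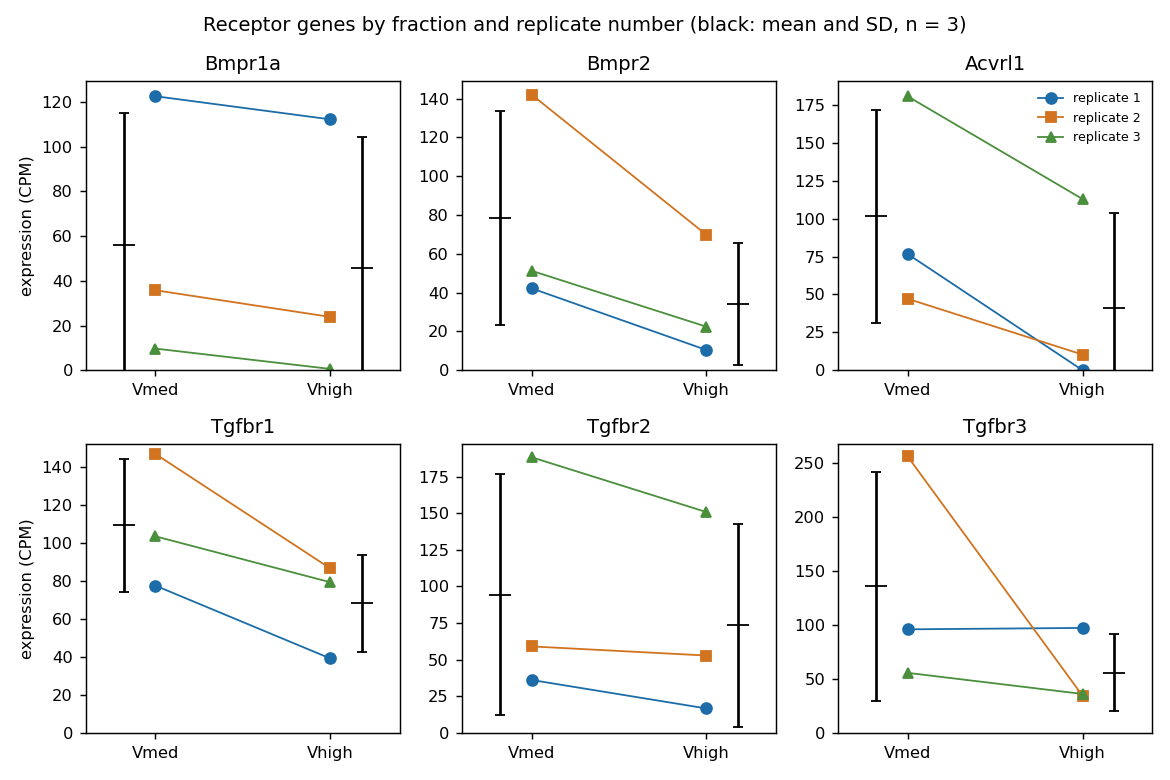
Expression in CPM (vertical axis) of 6 receptor genes in the Vmed and Vhigh fractions (horizontal axis), with lines joining libraries of the same replicate number and black bars for the mean and SD (n = 3, bars cut at 0). The line falls from Vmed to Vhigh in 3 of 3 pairs for *Bmpr1a*, *Bmpr2*, *Acvrl1*, *Tgfbr1* and *Tgfbr2*, but the 2 fractions overlap for all 6 genes.

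The Smad genes were spread over both directions, with 4 negative and 3 positive log2 fold changes among the 7 tested and a median of -0.26. Without Vhigh replicate 1 the median was 0.24. *Smad2* and *Smad3* transduce TGF-beta and activin signals. *Smad2* had 189, 85.2 and 44.3 CPM in Vmed and 73.9, 101 and 101 CPM in Vhigh, with a log2 fold change of -0.26 (SE 0.66). *Smad3* had 36.2, 122 and 90.0 CPM in Vmed and 90.7, 104 and 115 CPM in Vhigh, with a log2 fold change of 0.31 (SE 0.62). In both genes the Vhigh values lay inside the wider range of the Vmed values. *Smad4*, the shared partner, had 56.5, 38.1 and 12.2 CPM in Vmed and 23.6, 33.5 and 17.1 CPM in Vhigh, all Vhigh values again within the Vmed range.

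*Smad1* and *Smad5* carry the BMP signal. *Smad5* had 53.1, 89.3 and 76.8 CPM in Vmed and 59.2, 129.6 and 68.6 CPM in Vhigh, with a log2 fold change of 0.17 (SE 0.62), and 0.32 without Vhigh replicate 1. *Smad1* had 11.4, 40.4 and 19.97 CPM in Vmed and 9.01, 15.1 and 21.3 CPM in Vhigh, with a log2 fold change of -0.68 (SE 1.20), and -0.45 without that library. Their relative *Smad9* did not pass the filter and was at 0 in 4 of 6 libraries. *Smad7*, an inhibitory Smad, had 4.58, 10.6 and 3.91 CPM in Vmed and 44.4, 13.2 and 5.48 CPM in Vhigh. It was higher in Vhigh in 3 of 3 pairs, yet the fractions overlapped, and its log2 fold change of 1.78 (SE 1.45) was 0.43 without Vhigh replicate 1. The other inhibitory Smad gene, *Smad6*, ranged from 0.0938 to 12.2 CPM and overlapped as well.

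Of the antagonist genes, *Nog*, *Grem1* and *Chrd* were scarcely expressed in either fraction. *Nog* was at 0 in 4 libraries, *Grem1* in 5 and *Chrd* in 4, and none of the 3 passed the filter. The highest value among them was 4.46 CPM, for *Nog* in Vmed replicate 1, and 0 counts of *Chrd* in the Vmed libraries allow up to 0.309 to 0.362 CPM. *Bmper*, which binds BMPs outside the cell, ranged from 2.17 to 12.4 CPM in Vmed and from 0 to 15.6 CPM in Vhigh. *Smurf2*, a ubiquitin ligase that acts on Smads and TGF-beta receptors, had 118, 71.1 and 36.95 CPM in Vmed and 9.01, 61.4 and 12.1 CPM in Vhigh. It was lower in Vhigh in 3 of 3 pairs, Vhigh replicate 2 lay above Vmed replicate 3, and the log2 fold change was -1.60 (SE 0.93). *Smurf1* had 3.20, 31.8 and 11.1 CPM in Vmed and 0, 21.4 and 24.0 CPM in Vhigh, with no common direction among the pairs. Its log2 fold change was -0.08 (SE 1.87), and 0.51 without Vhigh replicate 1.

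**Figure D3:**
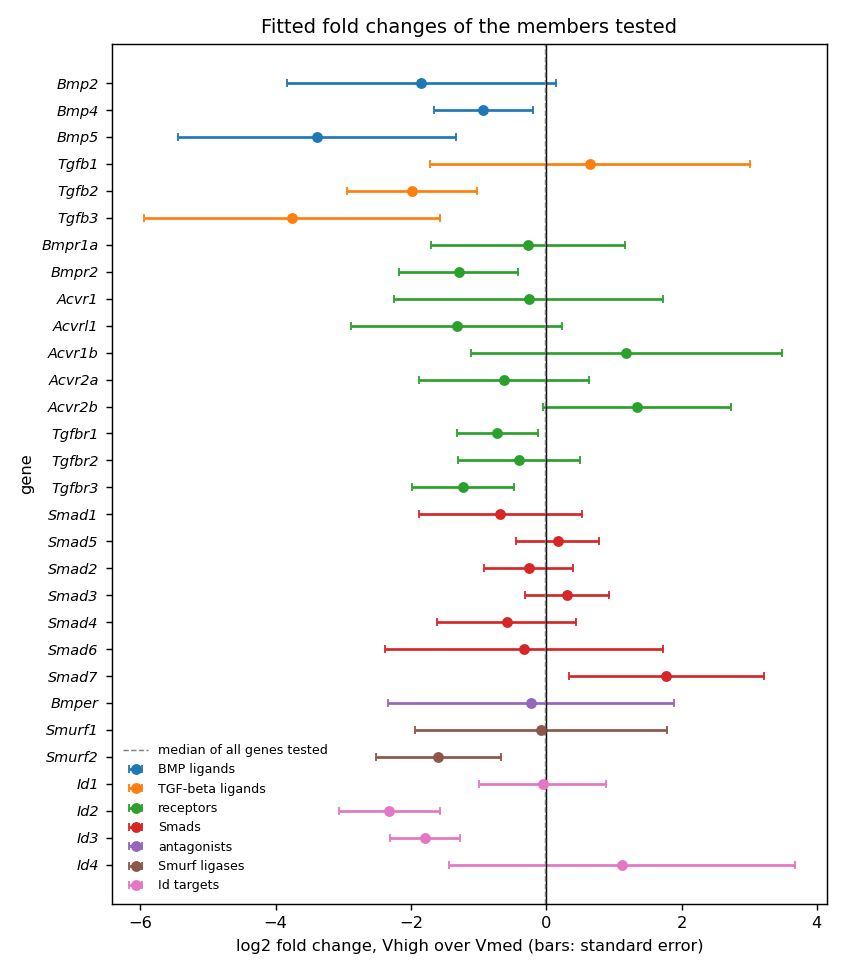
Fitted log2 fold changes of the 30 members tested (Vhigh over Vmed, horizontal axis) by gene (vertical axis) and coloured by role, with bars for the SE and a dashed line for the median of all genes tested. *Id2* and *Id3* are the only 2 members with an unadjusted p under 0.05, and the bars of most others are wide, as in *Bmp5* with an SE of 2.06.

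The Id genes separated into pairs. *Id2* (chromosome 12, 25093799 to 25097140) and *Id3* (chromosome 4, 136143497 to 136145755) were abundant and lower in Vhigh. *Id1* had similar means in both fractions, and *Id4* was at 0 to 19.98 CPM, with 0 counts in Vmed replicates 2 and 3. Short stretches of the *Id2* and *Id3* promoters are shown because both genes are textbook Smad targets and had the smallest unadjusted p-values among the members. The motifs looked for on both strands were GGCGCC, a GC-rich element bound by Smads, and CAGAC, the Smad-binding element, which reads GTCTG on the other strand, in the 250 bases before and 50 bases after the start site of RefSeq for GRCm38.p6. Capitals mark the motif, and each line reads 5′ to 3′ on the strand of the gene.
Id2, chr12:25096306-25096335, minus strand, motif 231 bases before the start site: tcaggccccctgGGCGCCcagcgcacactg
Id3, chr4:136143643-136143671, plus strand, motif 167 bases before the start site: tgtcctcggcgtCAGACcagcctaaggaa
Id3, chr4:136143742-136143770, plus strand, motif 68 bases before the start site: ggacccttggcgGTCTGttttgaataagg
GENCODE M21 also lists transcripts of both genes that start further upstream. By the gene coordinates given above, the *Id2* stretch and both *Id3* stretches lie inside these genes. GGCGCC was found in 11.9% and CAGAC in 49.6% of 32851 RefSeq promoter windows of the same length. Of the members, 27 had a promoter in that table, with 32 windows, of which 12 held GGCGCC and 15 held CAGAC. The GC content of these windows was 43.3 to 83.7%, and the background was not matched for it. Windows of the same gene can overlap, as for *Smad5*, so these counts are not of separate sites. A match is only a description of the sequence and not a bound site.

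A GATA motif (AGATAA, or TTATCT on the other strand) was found in 2 of the 32 windows, and in 11.2% of all windows. They are shown because the fractions were sorted on a *Gata2* reporter.
Smad5, chr13:56703418-56703441, plus strand, motif 244 bases before the start site: tctgggAGATAAggatccgcgctt
Tgfb2, chr1:186705971-186706000, minus strand, motif 1 base after the start site: agaatcgtgatgTTATCTgctggcagcagg
The *Smad5* stretch is from the furthest downstream of several windows of that gene, and its other windows held no GATA motif. It lies within the gene, whose first base in GENCODE M21 is at 56703010. *Smad5* overlapped between the fractions and *Tgfb2* did not, as given above.

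*Id2*, which opposes B cell and supports innate lymphoid and natural killer cell development, had 1330.1, 296 and 211 CPM in Vmed and 171, 163 and 48.9 CPM in Vhigh. Vmed replicate 1 was far above the other 5 libraries, and the highest Vhigh value was below the lowest Vmed value. The means were 613 ± 623 CPM (SD, n = 3) and 128 ± 68.4 CPM (SD, n = 3), 4.80-fold higher in Vmed. The fitted log2 fold change was -2.32 (SE 0.75, unadjusted p = 0.0143 and adjusted p = 0.9998 in edgeR's quasi-likelihood test, exact permutation p = 0.1). Without Vmed replicate 1 the log2 fold change was -0.99 (unadjusted p = 0.158), and with each of the other libraries left out it was between -2.74 and -1.94.

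*Id3*, which restrains E-proteins in developing lymphocytes and endothelium, had 975, 447 and 427 CPM in Vmed and 241, 184 and 122 CPM in Vhigh. Here too the fractions did not overlap, and replicate 1 was the highest in both. The mean was 616 ± 311 CPM (SD, n = 3) in Vmed and 182 ± 59.6 CPM (SD, n = 3) in Vhigh. The log2 fold change was -1.79 (SE 0.52, unadjusted p = 0.00698 and adjusted p = 0.9998 in edgeR's quasi-likelihood test, exact permutation p = 0.1), and it ranged from -2.15 to -1.25 when single libraries were left out. Without Vmed replicate 1 it was -1.25 (unadjusted p = 0.0396).

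*Id1*, the Id gene most often used as a readout of BMP signalling in endothelium, had 15.9, 41.5 and 47.8 CPM in Vmed and 36.5, 43.5 and 23.8 CPM in Vhigh. The means were 35.0 ± 16.9 CPM and 34.6 ± 9.94 CPM (SD, n = 3 each), with a log2 fold change of -0.05 (SE 0.94), and -0.18 without Vhigh replicate 1. This standard error leaves room for a change of the size seen in *Id3*. *Id4* ranged from 0 to 10.9 CPM in Vmed and from 0.415 to 19.98 CPM in Vhigh, with its highest values in replicate 1 of both fractions. Summed over the 4 Id genes, Vmed libraries had 2332, 785 and 686 CPM and Vhigh libraries 469, 393 and 195 CPM. Per kilobase of exon (RPKM), which allows genes to be ranked against each other, *Id3* was at 344 and *Id2* at 251 in Vmed, followed by *Bmp4* at 39.4 and *Id1* at 30.2. In Vhigh, *Id3* was at 102, *Id2* at 52.4, *Id1* at 29.8 and *Bmp4* at 20.4 RPKM. Given the SDs between libraries, *Id3* and *Id2* could not be ordered in Vmed, nor could *Bmp4* and *Id1* in either fraction.

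**Figure D4:**
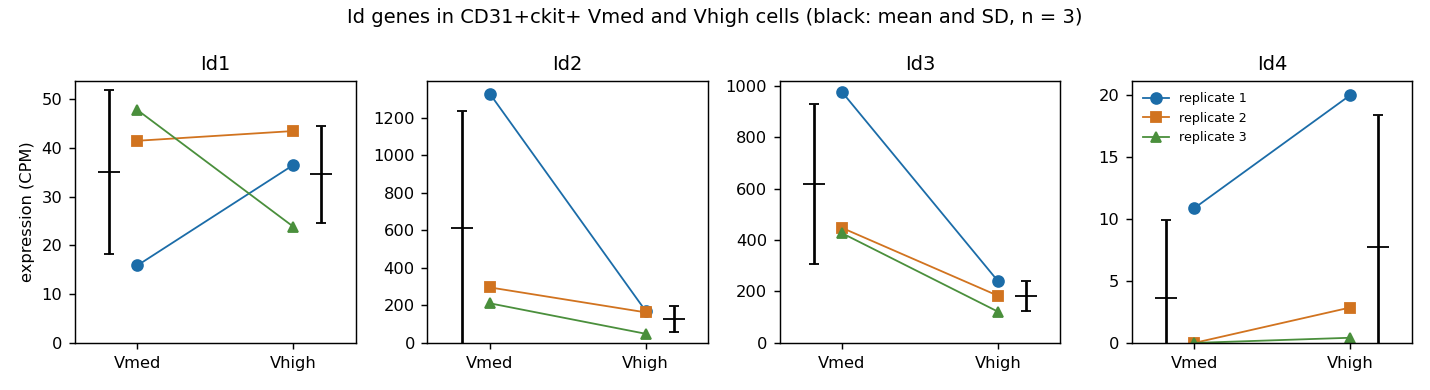
Expression in CPM (vertical axis, a separate scale for each gene) of the 4 Id genes in Vmed and Vhigh (horizontal axis), with lines joining libraries of the same replicate number and black bars for the mean and SD (n = 3, bars cut at 0). *Id2* and *Id3* are lower in Vhigh in 3 of 3 pairs, while the *Id1* lines cross and the means are 35.0 and 34.6 CPM.

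When the model held the replicate number as a block, the *Id2* log2 fold change was -2.01 (SE 0.38) and that of *Id3* was -1.74 (SE 0.22). The quasi-likelihood test with this block left both above the threshold (adjusted p = 0.669 for *Id2* and 0.565 for *Id3*), and 0 members passed. The likelihood ratio test of edgeR with the block, which takes the estimated dispersion as known, gave an adjusted p of 0.0209 for *Id2* and 0.00353 for *Id3*, and these were the 2 members it called, both lower in Vhigh, against 0.378% of all genes tested. Within replicate 1, 20 of the 30 members tested were lower and 9 higher in Vhigh, where 58.0% of all genes tested were lower. In replicates 2 and 3, 19 were lower and 11 higher in each, where 42.4% and 45.1% of all genes were lower. The replicate number itself had an unadjusted p under 0.05 for 4 of 30 members (*Bmpr1a*, *Tgfbr2*, *Id2* and *Id3*), which is close to the 12.4% of all genes tested, and 0 genes passed after adjustment. *Bmpr1a*, *Id2* and *Id3* were highest in replicate 1 of both fractions, and *Tgfbr2* in replicate 3 of both.

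To place the members in the wider pathway, 81 further genes of ligands, co-receptors, regulators and targets were listed, of which 50 were tested. In edgeR's quasi-likelihood test 0 of them passed the threshold, 3 were lower in Vhigh at an unadjusted p under 0.05 (*Tgfbi*, *Thbs1* and *Dcn*) and 0 were higher, where 1.17% and 0.867% of all genes tested were. The fractions did not overlap for 6, of which 5 were lower in Vhigh and 1 was higher, against 4.71% and 4.15% of all genes tested. Fitted log2 fold changes were negative for 34 and positive for 16 (51.1% of all genes tested were negative), with a median of -0.37, against -0.02 for all genes tested and -0.21 for the same list without Vhigh replicate 1. The largest group, 21 regulators inside the cell, had 11 negative and 10 positive values. The 17 tested regulators outside the cell had 13 negative and 4 positive values, with a median of -1.50.

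*Tgfbi* encodes a matrix protein induced by TGF-beta. It had 163, 225 and 221 CPM in Vmed and 8.07, 19.1 and 38.8 CPM in Vhigh. Its log2 fold change was -3.24 (SE 0.64, unadjusted p = 0.00089 and adjusted p = 0.96 in edgeR's quasi-likelihood test). *Thbs1*, which encodes thrombospondin-1, an activator of latent TGF-beta, had 85.8, 244 and 197 CPM in Vmed and 3.47, 29.1 and 18.2 CPM in Vhigh, a log2 fold change of -3.47 (SE 0.76, unadjusted p = 0.00188). *Dcn* encodes decorin, a matrix proteoglycan that binds TGF-beta, and had 295, 332 and 305 CPM in Vmed and 110.3, 3.87 and 4.32 CPM in Vhigh, a log2 fold change of -2.88 (SE 1.0996, unadjusted p = 0.0343). For all 3 genes every Vmed library was above every Vhigh library. Without Vhigh replicate 1, the only library of its fraction with *Dcn* above 5 CPM, *Dcn* had a log2 fold change of -6.33 (adjusted p = 0.037 in edgeR's quasi-likelihood test). The likelihood ratio test with the replicate block called these 3 genes and no other of the 50.

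Other regulators named by the same rule had smaller differences. *Fstl1*, a secreted follistatin-like protein that binds BMP4, had 1375, 1011 and 504 CPM in Vmed and 828, 381 and 236 CPM in Vhigh, lower in Vhigh in 3 of 3 pairs with overlapping fractions. The log2 fold change of *Fstl1* was -0.99 (SE 0.59), and -1.77 without Vhigh replicate 1. *Skil*, which encodes the Smad co-repressor SnoN, had 783, 224 and 68.4 CPM in Vmed and 273, 81.2 and 34.8 CPM in Vhigh. It too was lower in 3 of 3 pairs, with differences of -1.52, -1.46 and -0.97 in log2 CPM, and its log2 fold change was -1.45 (SE 0.93), or -2.80 without Vhigh replicate 1. *Usp15*, a deubiquitinase that acts on Smads and TGF-beta receptors, had 168, 186 and 133 CPM in Vmed and 409, 202 and 235 CPM in Vhigh, and was the gene of this list whose fractions did not overlap with Vhigh above Vmed. Its log2 fold change was 0.81 (SE 0.50), and 0.34 (unadjusted p = 0.507) without Vhigh replicate 1. The BMP antagonist genes *Nbl1* and *Sost* did not overlap either, at 1.33 to 6.18 CPM in Vmed and 0 to 2.12 CPM in Vhigh. *Fst*, which encodes follistatin, an activin antagonist, had 16.5, 12.3 and 23.6 CPM in Vmed and 0, 14.7 and 0.249 CPM in Vhigh. *Map3k7*, the kinase TAK1, had 12.5, 7.71 and 6.38 CPM in Vmed and 1.88, 44.2 and 29.0 CPM in Vhigh.

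Marker genes of other cell types moved with these differences, while 51.1% of all genes tested had a negative fitted log2 fold change. Summed over 14 mesenchyme markers, which include *Dcn*, Vmed libraries had 2464, 5009 and 5823 CPM and Vhigh libraries 837, 723 and 428 CPM, with 13 of 14 negative and no marker at 0 in all libraries of a fraction. The 11 macrophage markers summed to 1796, 1046 and 1027 CPM in Vmed and to 506, 144 and 148 CPM in Vhigh, and all 11 were negative. The macrophage sum, like *Id2* and *Id3*, was highest in Vmed replicate 1, and so was the sum of the erythroid markers given below. *C1qa*, a complement gene of macrophages, was at 16.2 to 62.8 CPM in Vmed and at 0 to 1.99 CPM in Vhigh. Endothelial markers summed to between 1746 and 5729 CPM in Vmed and between 1387 and 4089 CPM in Vhigh (13 of 14 negative), and stem and progenitor markers to between 570 and 1471 CPM in Vmed and between 1465 and 4354 CPM in Vhigh (0 of 14 negative). Sums in Vmed and Vhigh were 460 to 1020 and 314 to 441 CPM for 11 megakaryocyte markers, 268 to 352 and 94.7 to 159 CPM for 8 epithelium markers, and 180 to 601 and 106 to 233 CPM for 10 erythroid markers, among which *Hba-a1* and *Hba-a2* were at 0 in all 6 libraries. The part of these cell types in the levels of *Id2*, *Id3*, *Tgfb2*, *Bmp5*, *Tgfbi*, *Thbs1* and *Dcn* was not tested.

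**Figure D5:**
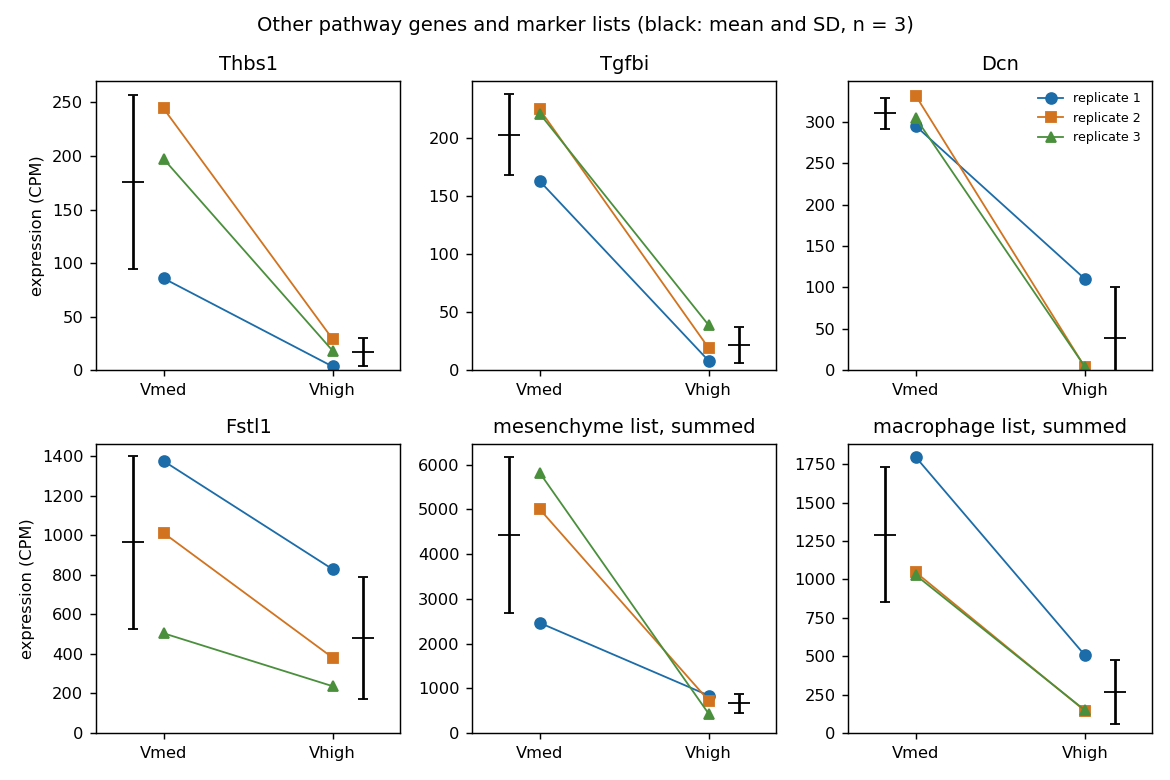
Expression in CPM (vertical axis, a separate scale for each panel) of *Thbs1*, *Tgfbi*, *Dcn* and *Fstl1* and the summed CPM of the mesenchyme and macrophage marker lists in Vmed and Vhigh (horizontal axis), with lines joining libraries of the same replicate number and black bars for the mean and SD (n = 3, bars cut at 0). All 18 lines fall from Vmed to Vhigh, and the mesenchyme sum in Vhigh stays at or below 837 CPM.

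Some of the members share exons with other genes on the opposite strand in GENCODE M21, and whether reads were counted by strand is not given in the sources used here. Such overlaps were 1878 bases for *Bmp5*, 446 for *Acvr2a* with *Orc4*, 290 for *Bmpr1a*, 127 for *Acvrl1*, 124 for *Tgfb2* and 89 for *Bmp4*. *Bmp6*, *Tgfb3*, *Chrd* and *Id4* had overlaps of 82 to 257 bases. Part of the counts of all these genes could come from the other gene. On the same strand, 297 bases of *Tgfbr3*, 100 of *Smad5* and 58 of *Smurf2* were shared with another gene. No other gene shared exon bases with *Id2* or *Id3*.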

How the data were processed

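CD31+ckit+ Vmed and Vhigh cells were sorted from E10.5 AGMs, and RNA was isolated with the mirVana kit, amplified with SMARTer and sequenced as single reads of 50 bases. The authors aligned reads to GRCm38/mm10 with TopHat/Bowtie 1.1.2 and deposited raw read counts per gene for each library. HTSeq is named in the submitters' processing notes. The annotation, the strand setting and the edgeR test function are not given in the sources used here. The lines for alignments without a gene were left out. They held 7.09 to 35.6% (no feature) and 41.3 to 57.7% (not unique) of the gene counts and all such lines together. *Rn45s* held 0.887 to 10.5% of counts on genes. No columns were left unassigned, and no 2 libraries agreed within sampling noise.

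The members and the lists were chosen with earlier results of these data known. CPM used each library's gene total, log2 CPM a prior count of 2, and RPKM the exon union of GENCODE M21. The comparison of Vhigh with Vmed used edgeR 4.0.16 (R 4.3.3). After filterByExpr (12688 of 24062 genes) and TMM (factors 0.919 to 1.15), the fraction alone was modelled, the quasi-likelihood test applied and p-values adjusted by Benjamini-Hochberg over all genes tested. Adjusted p-values were not computed over the members alone. For single members an exact two-sided permutation test ran over the 20 arrangements of the libraries. The biological coefficient of variation was 1.16. The study describes the 3 libraries per fraction as independent experiments. Replicate numbers in the labels were taken to pair the libraries, because deviations from the fraction means correlated across genes with r = 0.213, 0.207 and 0.390 for numbers 1, 2 and 3, against -0.290 to -0.00543 for libraries of different numbers. Deviations from a mean cancel out within a fraction, so positive values for equal numbers bring negative ones for different numbers. In log2 CPM itself, Vmed replicate 1 correlated more with Vhigh replicate 2 (r = 0.686) than with Vhigh replicate 1 (r = 0.591). Vmed replicates 2 and 3 correlated most with their own number (r = 0.794 and 0.793). Genes are not independent, so these values only describe the libraries, and the pairing remains an assumption. Values in every library are given for members with a mean of at least 10 CPM over the 6 libraries, without overlap between the fractions, or with an unadjusted p under 0.05, and for other pathway genes by the same criteria, at most the 10 with the smallest p. *Tgfb3*, *Id4* and other members outside these criteria are given by their range, *Tgfb3* also with its fold change. *C1qa* was picked from the macrophage markers after its values were seen. Alternatives were RLE and library-size scaling, removal of *Rn45s*, 2 other filters, the likelihood ratio test, DESeq2 1.42.0, limma-voom (limma 3.58.1), the replicate block, and omission of single libraries. The test of the replicate number was added after seeing the data. The main fit, the quasi-likelihood test with the fraction alone, was tested on simulated counts with a smaller dispersion than these data have. The other procedures were not tested in this way.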

Additional observations from a re-analysis of the deposited data

How the results depend on the processing

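The 0 genes called of 12688 by the quasi-likelihood test became 37 of 20033 with no filter (24 lower and 13 higher in Vhigh), 21 with the likelihood ratio test (10 and 11), 51 with DESeq2 (31 and 20) and 74 with the replicate block and the likelihood ratio test (48 and 26). With RLE or library-size scaling, without *Rn45s*, with the 1 CPM filter, with limma-voom (478 genes at an unadjusted p under 0.05) and in the blocked quasi-likelihood test (528) it stayed 0. The members called went from 0 to 1 with no filter (*Id2*) and to 2 with the replicate block and the likelihood ratio test (*Id2* and *Id3*). The block changed no other call among the members. The other pathway genes called went from 0 to 3 with no filter, to 1 with the likelihood ratio test, to 2 with DESeq2 and to 3 with the block and the likelihood ratio test. Leave-one-out fits gave a range of 0 to 1 genes, 0 members and 0 to 1 other pathway genes, the 1 being *Dcn* without Vhigh replicate 1. The cause of these differences was not tested.

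Of 30 members, 17 kept the sign of their log2 fold change in every alternative run. The sign turned for *Tgfb1* with limma-voom (-0.22) and with the block (-0.17 by quasi-likelihood and -0.0800 by likelihood ratio), for *Acvr1* (0.93, 0.99 and 0.96 in that order), for *Smad2* (0.0302, 0.00308 and 0.00305) and for *Id1* (0.00818, 0.0477 and 0.0475). With libraries left out, the log2 fold changes that turned ranged from -0.82 to 1.82 for *Tgfb1*, -2.43 to 1.11 for *Bmpr1a*, -0.84 to 1.76 for *Acvr1*, -1.39 to 0.0440 for *Acvr2a*, -1.50 to 0.61 for *Tgfbr2*, -0.14 to 0.34 for *Smad5*, -0.63 to 0.51 for *Smad2*, -0.0321 to 0.67 for *Smad3*, -2.80 to 0.24 for *Smad6*, -2.02 to 0.35 for *Bmper*, -0.62 to 0.95 for *Smurf1*, -0.39 to 0.26 for *Id1* and -1.37 to 9.42 for *Id4*. The median of the members, -0.49, became -0.86 with the block and -0.87 with limma-voom, where the median of all genes tested shifted to -0.11 and -0.14, and it ranged from -0.83 (without Vhigh replicate 3) to -0.49 when single libraries were left out. With 3 libraries per fraction and a biological coefficient of variation of 1.16, the 4.80-fold difference between the means of *Id2* did not pass the threshold, and 15 of 37 members had 0 counts in Vhigh replicate 1.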
